A study of Mus musculus with 9 samples.

Results

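The genes described here serve protein folding and the response to its failure. They are the 73 protein-coding genes of the table whose symbol in the GENCODE M21 annotation belongs to a fixed set of names: the heat shock proteins (Hsp), the J-domain proteins (Dnaj), the disulfide isomerases and oxidases (Pdia, Ero1), further chaperones of the endoplasmic reticulum (ER), the sensors, transcription factors and targets of ER stress, ER-associated degradation (ERAD), the translocon and COPII coat (Sec, Ssr), the chaperonin TRiC (Cct, Tcp1) and the Bag co-chaperones. They made up 1.38% of the 5301 genes of the table. The same names matched 163 protein-coding genes of the annotation, and the other 90, among them Xbp1, Ern1, Atf5, Canx, Sel1l, Sdf2l1, Hsp90aa1, Hsp90ab1, Tcp1 and Bag3, were not analysed here. The 73 genes were sorted into 14 roles, the last holding only Asnsd1. Another 4 shared only the name (Hspb11, Hspbap1, Sec14l1 and Sec14l2) and are not known as chaperones or coat proteins.

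Total RNA was sequenced from cultured 6DT1 cells. This mouse mammary cancer line was derived from an MMTV-Myc tumor and grows in syngeneic FVB/NJ mice. All cells had been transduced with a lentiviral hairpin and were kept in puromycin. The shControl group carried a scramble hairpin and is labelled wildtype, and the shH4 and shH6 groups carried a hairpin against Resf1 each and are labelled Resf1 sh4 knockdown and Resf1 sh6 knockdown (KD). Each group held 3 libraries from dishes seeded in parallel from 1 transduced line, so the hairpin and the line cannot be told apart, and p-values measure only the spread between dishes.

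Proteins that enter the ER are folded there by the HSP70 protein BiP (Hspa5), the HSP90 protein GRP94 (Hsp90b1), lectin chaperones and disulfide isomerases, and failed products are passed to the cytosol for degradation. When unfolded proteins accumulate, the sensors ATF6, IRE1 (Ern1) and PERK (Eif2ak3) start the unfolded protein response (UPR). ATF6 and XBP1 induce ER chaperones, while PERK phosphorylates the initiation factor eIF2α, which slows translation in general and favours that of the transcription factor ATF4. The ATF4 branch is shared with other kinases as the integrated stress response (ISR), which lack of amino acids also starts. In the cytosol, heat shock factor 1 (Hsf1) induces the HSP70 and HSP90 systems.

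Values were normalized counts, that is read counts that the authors divided by a factor per library, and the estimated reads in the listed genes ranged from 10.5 to 19.9 M per library. Resf1, the target of the hairpins, had a mean of 1585 ± 29.3 normalized counts under shControl, 982 ± 31.7 under shH4 and 1121 ± 8.88 under shH6 (SD, n = 3 each), so that both KD labels matched. Each of the 5301 genes had the same sign of change under both hairpins, which shows a table of genes already selected for a difference from shControl, and counts of calls against shControl cannot be read as shares of a transcriptome. Of 16 marker genes checked, 6 were analysed here and none of these was at 0. The epithelial keratins Krt8 and Krt18 summed to between 26585 and 28995 normalized counts in shControl, 22386 and 23863 in shH4 and 24795 and 27873 in shH6. The endothelial markers Pecam1 and Cdh5 summed to between 20.2 and 30.7 in shControl, 173 and 208 in shH4 and 26.01 and 31.2 in shH6. The immune marker Cd68 ran from 608 to 668 in shControl, 197 to 245 in shH4 and 191 to 234 in shH6, and the mesenchymal marker Pdgfra from 69.7 to 108, 119 to 162 and 128 to 157. The part of these markers in the results below was not tested.

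The 7 listed genes of the stress transcription factor and ISR effector role were lower in both hairpins, as were 44.6% of all listed genes. Of the listed chaperones, 8 of 13 in the ER and 13 of 21 in the cytosol were slightly higher in both. The share over all listed genes was 47.2%. In bulk RNA such as this, fewer cells of a type and less RNA per cell cannot be told apart. In shH4, 37 of the 73 genes were higher than in shControl and 31 lower at a limma adjusted p-value under 0.05, where 49.2% of all listed genes were called higher and 46.5% lower. In shH6, 33 were higher and 35 lower, against 49.1% and 46.9% of all listed genes. Scaled to equal upper quartiles, the split was 25 higher and 36 lower in each hairpin. Scaled to equal column totals, it was 37 higher and 28 lower in shH4, and 37 and 32 in shH6. Both hairpins called 63 of the genes (86.3%) in the same direction, 33 higher and 30 lower, against 91.8% of the listed genes, of which 47.2% were higher and 44.6% lower in both. These shares were near those of the whole table. In the 2 comparisons with shControl, 10 gene changes were not called, and each of the 10 passed under at least 1 of the alternatives. All 6 KD libraries lay above all 3 shControl libraries for 32 genes and below them for another 32, each 43.8% of the 73, where 43.5% and 42.8% of the listed genes did so. Over the 73 genes the median log2 fold change came to 0.09 for shH4 and 0.06 for shH6, beside 0.10 and 0.09 over the table.

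The changes were mostly small. Under shH4, 49 of the 73 genes (67.1%) stayed within 1.2-fold of shControl, 18 moved by 1.2 to 1.5-fold and 6 by more. Under shH6, these numbers were 44, 22 and 7. Among all listed genes, 49.2% under shH4 and 48.0% under shH6 stayed within 1.2-fold. The replicates lay close together, with a median coefficient of variation in shControl of 2.64% for the 73 genes and 3.97% for all listed genes. No gene of the 73 changed the sign of its difference from shControl in any of the 17 alternative analyses. Since the listed genes were already selected for such a difference, this was largely fixed beforehand and is no support. Of the 63 shared calls, 39 held in all 17 alternatives, 19 higher and 20 lower.

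**Figure D1:**
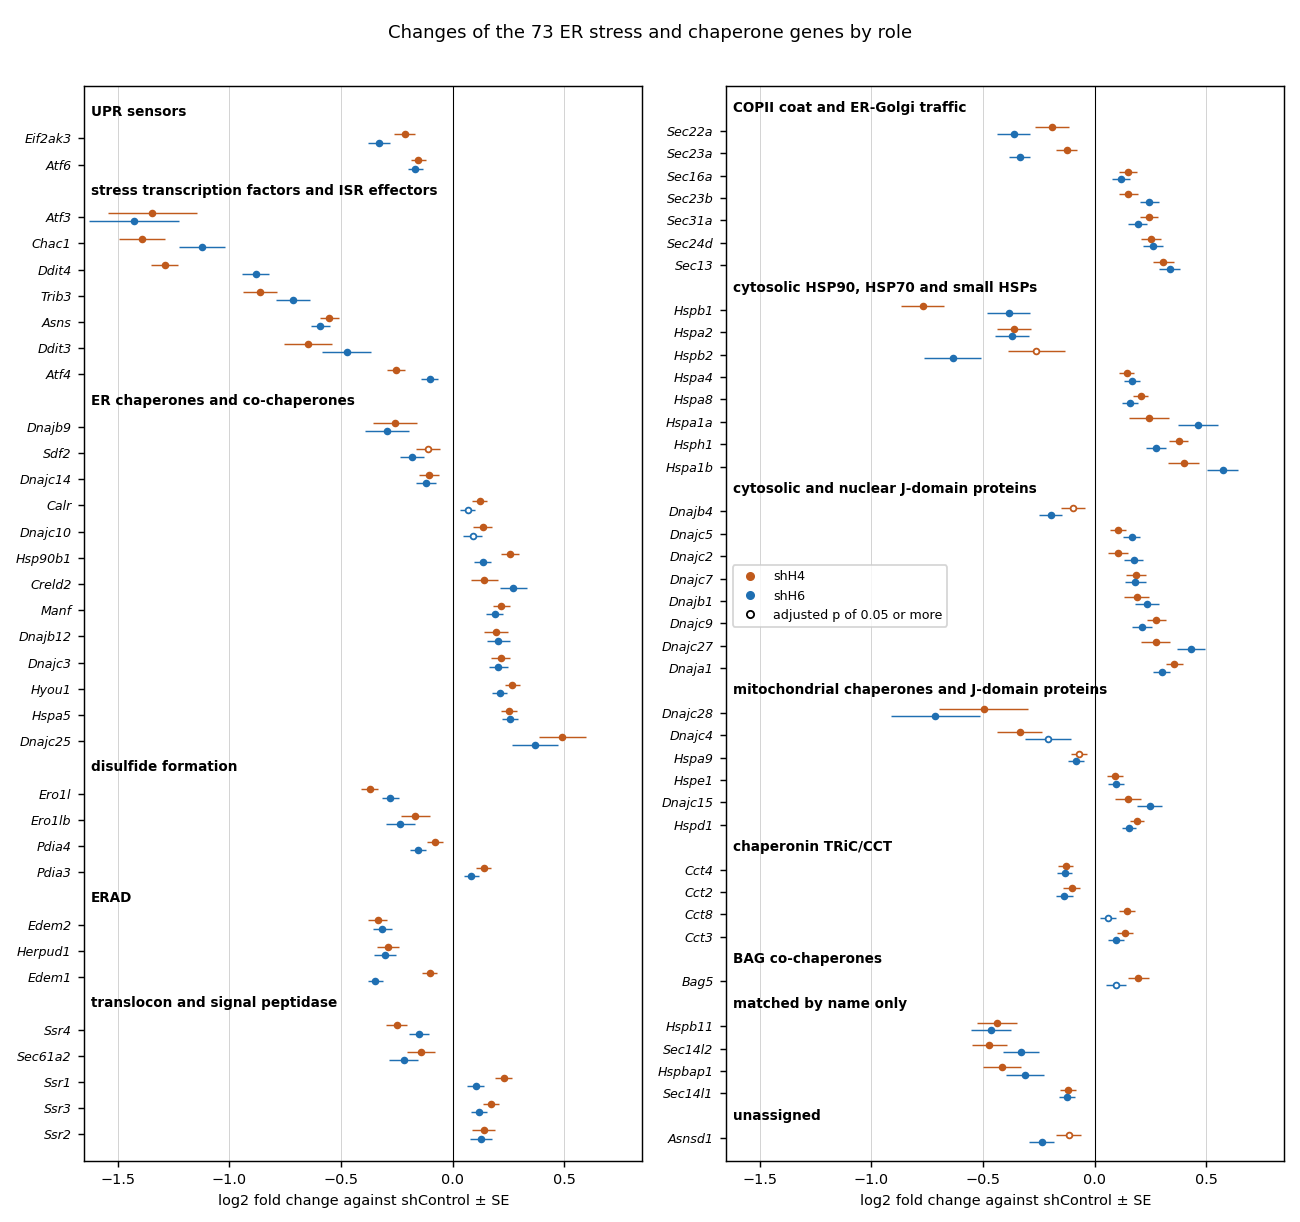
Log2 fold change against shControl of each of the 73 genes, grouped by role. The horizontal axis is the log2 fold change with its SE, orange points are shH4, blue points are shH6, and open points had an adjusted p-value of 0.05 or more. The 7 stress transcription factors and effectors all lie to the left of 0, down to −1.43 for Atf3, and the ER chaperones lie mostly between 0.07 and 0.49.

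The 4 largest changes in each hairpin, those of Atf3, Chac1, Ddit4 and Trib3, fell to the stress transcription factors and ISR effectors. All 7 of these genes were lower in both hairpins, as were 44.6% of all listed genes. For each of the 7, all 6 KD libraries lay below all 3 shControl libraries, as for 42.8% of the listed genes. The median change of the 7 on the log2 scale was −0.86 under shH4 and −0.72 under shH6. Within libraries, the median difference of the 7 genes from their shControl means ran from −0.97 to −0.72 on the log2 scale in the shH4 libraries and from −0.79 to −0.64 in the shH6 libraries, against −0.03 to 0.05 in shControl. Atf3 encodes a stress-induced bZIP transcription factor. It was at 127, 122 and 117 normalized counts under shControl, 49.3, 51.7 and 42.1 under shH4, and 62.0, 48.3 and 29.9 under shH6. The values of the KD groups overlapped each other but not those of shControl. The lowest of them, in shH6 replicate 3, stood for about 24 reads, the fewest behind any value of the 73 genes, and was taken in the library with the fewest reads. For Atf3 (ENSMUSG00000026628), limma gave log2 fold changes of −1.34 (SE 0.20, adjusted p = 2.26e-05) for shH4 and −1.43 (SE 0.20, adjusted p = 1.21e-05) for shH6.

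Chac1 encodes a glutathione-degrading enzyme that is a target of ATF4 and CHOP. Its values were 279, 277 and 329 normalized counts under shControl, 116, 106 and 113 under shH4, and 123.2, 134 and 147 under shH6, so that its mean was 2.64-fold lower in shH4 and 2.19-fold lower in shH6. All shH4 libraries were below all shH6 libraries, which were in turn below all shControl libraries. For Chac1 (ENSMUSG00000027313), limma gave log2 fold changes of −1.39 (SE 0.10, adjusted p = 1.56e-08) for shH4 and −1.12 (SE 0.10, adjusted p = 1.59e-07) for shH6. Between the hairpins, Chac1 did not pass the threshold (0.27, limma adjusted p = 0.134). Ddit4, or REDD1, is an inhibitor of mTORC1 that stress induces. It had 1367, 1283 and 1447 normalized counts under shControl, 531, 564 and 579 under shH4, and 722, 792 and 708 under shH6. The 3 groups did not overlap, with shH4 lowest. For Ddit4 (ENSMUSG00000020108), limma gave log2 fold changes of −1.29 (SE 0.06, adjusted p = 1.08e-10) for shH4 and −0.88 (SE 0.06, adjusted p = 6.07e-09) for shH6.

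Trib3 encodes a pseudokinase that ATF4 and CHOP induce and that restrains both. It was at 495, 494 and 523 normalized counts under shControl, 257, 270.4 and 305 under shH4, and 308, 322 and 291 under shH6, with the shControl libraries apart from all others and with the KD groups crossing at 305 and 291. For Trib3 (ENSMUSG00000032715), limma gave log2 fold changes of −0.86 (SE 0.077, adjusted p = 1.08e-07) for shH4 and −0.72 (SE 0.077, adjusted p = 7.36e-07) for shH6. Asns, asparagine synthetase, is a target of ATF4 under amino acid shortage. It was measured at 4701, 4545 and 4646 normalized counts under shControl, 3196, 3163 and 3119.9 under shH4, and 3074, 3281 and 2876 under shH6. The shH6 libraries spread around those of shH4, and both lay well below shControl. For Asns (ENSMUSG00000029752), limma gave log2 fold changes of −0.55 (SE 0.042, adjusted p = 2.27e-08) for shH4 and −0.59 (SE 0.042, adjusted p = 1.10e-08) for shH6.

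Ddit3 encodes CHOP, the transcription factor tied to cell death in prolonged ER stress. Its values were 192, 172 and 206 normalized counts under shControl, 127, 108 and 128 under shH4, and 148, 134 and 127 under shH6. All KD libraries were below the lowest shControl library, and the KD groups overlapped. For Ddit3 (ENSMUSG00000025408), limma gave log2 fold changes of −0.65 (SE 0.11, adjusted p = 7.35e-05) for shH4 and −0.47 (SE 0.11, adjusted p = 0.000919) for shH6. The annotation holds a further entry under the symbol Ddit3 and the gene Mars on the opposite strand at the same place, so its reads may be shared. Atf4 itself changed least of the 7. It was at 5105, 5159 and 5075 normalized counts under shControl, 4378, 4364 and 4132 under shH4, and 4646, 5021 and 4626 under shH6. All shH4 libraries were below all shH6 libraries, of which replicate 2 came closest to shControl. For Atf4 (ENSMUSG00000042406), limma gave log2 fold changes of −0.25 (SE 0.038, adjusted p = 2.61e-05) for shH4 and −0.10 (SE 0.038, adjusted p = 0.018) for shH6. The shH6 call was lost without shH6 replicate 1 (0.0796) or shH6 replicate 3 (0.0595), where parentheses here and in later such sentences hold the adjusted p-value, and after scaling to equal column totals (adjusted p = 0.105). The mRNA level does not measure the translation of Atf4, on which its activity mainly depends.

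**Figure D2:**
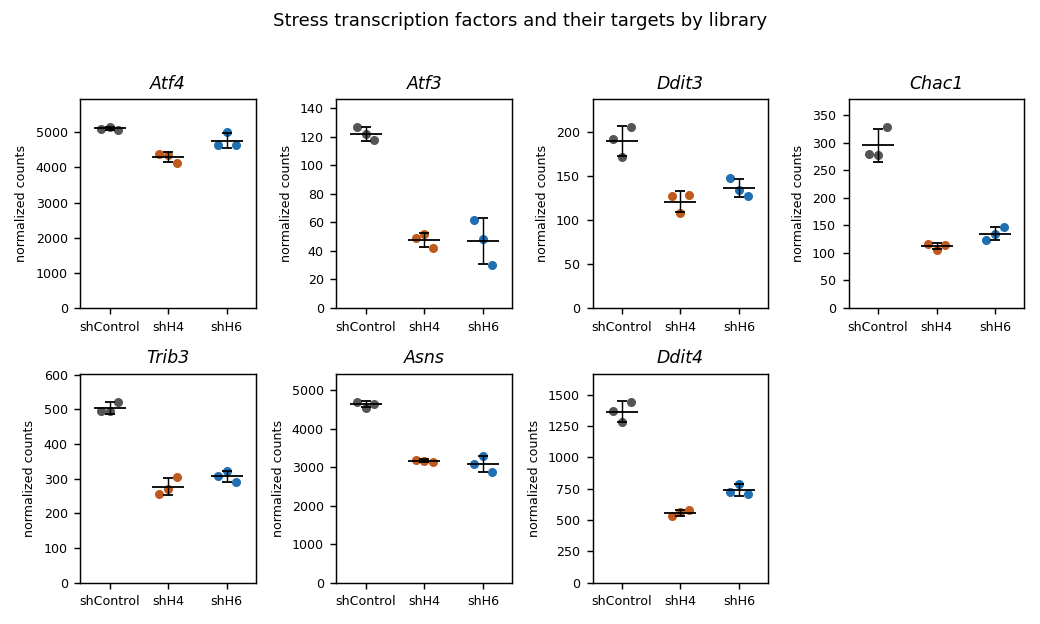
Normalized counts of the 7 stress transcription factor and effector genes in each library. Points are single libraries of shControl, shH4 and shH6, and the bars are the mean and SD of 3 libraries. In each panel all 6 KD points lie below the 3 shControl points, most widely for Atf3, Chac1 and Ddit4.

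The promoters of these genes were searched for the ATF4 element, written here as TGATG, any base and AA on either strand, in the RefSeq promoters of GRCm38.p6 that run from 250 bases before to 50 bases after each start. Such a promoter was matched for 60 of the 73 genes. The element was found in a promoter of 5 of these genes (8.33%), against 4.51% of all 27025 genes with a promoter and 2.66% of those in the table. Some genes have more than 1 promoter. The 5 genes were Atf3, Chac1, Trib3, Asns and Herpud1, and all 5 were lower in both hairpins, as were 44.6% of all listed genes and 59 of the 100 listed genes that carry the element (36 of the 100 were higher in both). A match is a description of the letters and no evidence that the factor binds. The sequences are shown because 4 of the 7 genes described above share the element. They read 5′ to 3′ on the strand of the gene, with the element in capitals. In Trib3 it lay beyond the start and is not printed.
Atf3: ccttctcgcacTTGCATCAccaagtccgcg
Chac1: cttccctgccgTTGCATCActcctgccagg
Asns: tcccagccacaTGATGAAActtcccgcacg
Herpud1: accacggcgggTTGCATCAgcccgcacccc
The Atf3 stretch lies at chr1:191183425-191183454 on the minus strand, with the element 110 to 103 bases before the start. Chac1 holds it on the plus strand at chr2:119351038-119351067, 193 to 186 bases before the start. In Asns the stretch is chr6:7693214-7693243 on the minus strand and the element 23 to 16 bases before the start. The Herpud1 stretch is chr8:94386306-94386335 on the plus strand, with the element 112 to 105 bases before the start. The copies of Atf3, Chac1 and Herpud1 are the same 8 letters, TTGCATCA, read on the opposite strand, and that of Asns is TGATGAAA.

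Other genes of the pathway were taken from a list outside the naming rule. Of 13 ATF4 targets, most of them genes of amino acid and one-carbon metabolism or transport, 8 were in the table. In each hairpin 7 of the 8 were lower and none was higher by the limma test, and 6 were lower in both, where 46.5% of all listed genes were lower in shH4, 46.9% in shH6 and 44.6% in both. The exceptions were Vldlr, a lipoprotein receptor, in shH4 (log2 fold change −0.09, adjusted p = 0.0817) and Phgdh in shH6 (−0.06, adjusted p = 0.113), which both also had means below that of shControl. Vldlr passed in shH4 under equal upper quartiles (adjusted p = 0.00851) and without shH4 replicate 3 (0.0311), and Phgdh in shH6 under equal upper quartiles (0.00839) and library weights (0.0236). Psph, the last enzyme of serine synthesis, was lower, at 645 ± 20.3 normalized counts under shControl, 451 ± 21.7 under shH4 and 453 ± 40.6 under shH6 (SD, n = 3 each). Its log2 fold changes were −0.52 for shH4 and −0.51 for shH6 (limma adjusted p = 7.93e-06 and 8.36e-06). Of 17 further UPR signalling genes, 6 were in the table, with 5 lower in both hairpins and Ppp1r15b, a regulatory subunit of the eIF2α phosphatase, higher. Ppp1r15b had log2 fold changes of 0.09 for shH4 and 0.24 for shH6, and its shH4 call was lost without shControl replicate 1 (0.119) or shH4 replicate 1 (0.057) and under equal upper quartiles (0.354). Eif2ak2, the kinase PKR, lost its shH4 call after scaling to equal column totals (log2 fold change −0.09, adjusted p = 0.0513). Wfs1, an ER membrane protein induced in the UPR, was lower, at 366 ± 47.3 normalized counts under shControl, 227 ± 15.3 under shH4 and 234 ± 8.16 under shH6 (SD, n = 3 each). Log2 fold changes came to −0.68 for shH4 and −0.64 for shH6 (limma adjusted p = 9.25e-06 and 1.60e-05). Sesn2, a stress-induced inhibitor of mTORC1, had log2 fold changes of −0.62 for shH4 and −0.63 for shH6 (limma adjusted p = 2.09e-06 and 1.59e-06).

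Both sensors that were analysed were lower in both hairpins, as were 44.6% of all listed genes. Eif2ak3, the kinase PERK, was at 1033, 990.2 and 1053 normalized counts under shControl, 889, 878 and 882 under shH4, and 789, 849 and 808 under shH6. The shH6 libraries were all below those of shH4, and these below shControl, but the difference between the hairpins did not pass the threshold (adjusted p = 0.172). For Eif2ak3 (ENSMUSG00000031668), limma gave log2 fold changes of −0.21 (SE 0.049, adjusted p = 0.000821) for shH4 and −0.33 (SE 0.049, adjusted p = 1.86e-05) for shH6. Atf6, the membrane-bound transcription factor, was at 5902, 5656 and 5739 normalized counts under shControl, 5243, 5105 and 5209 under shH4, and 5226, 5219 and 4964 under shH6, with the KD groups overlapping and both below shControl. For Atf6 (ENSMUSG00000026663), limma gave log2 fold changes of −0.15 (SE 0.034, adjusted p = 0.000743) for shH4 and −0.17 (SE 0.034, adjusted p = 0.000352) for shH6. The 3 ERAD genes analysed were lower as well. Herpud1, a membrane scaffold of the degradation complex and a UPR target, was at 912, 929 and 912 normalized counts under shControl, 769.7, 751 and 735 under shH4, and 749, 770.2 and 715 under shH6. Its KD libraries formed 1 range, well under shControl. For Herpud1 (ENSMUSG00000031770), limma gave log2 fold changes of −0.29 (SE 0.05, adjusted p = 9.04e-05) for shH4 and −0.30 (SE 0.05, adjusted p = 5.49e-05) for shH6. Edem2, which starts mannose trimming of misfolded glycoproteins, had log2 fold changes of −0.34 for shH4 and −0.32 for shH6.

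Edem1, which also marks misfolded glycoproteins for disposal, differed between the hairpins. It was at 5557, 5259 and 5267 normalized counts under shControl, 5004, 5035 and 4946 under shH4, and 4293, 4219 and 4136 under shH6. The 3 groups did not overlap, with shH6 lowest and shH4 close to shControl. For Edem1 (ENSMUSG00000030104), limma gave log2 fold changes of −0.10 (SE 0.034, adjusted p = 0.0106) for shH4 and −0.35 (SE 0.034, adjusted p = 3.24e-07) for shH6. The shH4 call of Edem1 was lost without shControl replicate 1 (0.0685). The 3 ERAD components outside the rule that were analysed were higher in both hairpins, as were 47.2% of all listed genes. Vcp, the ATPase that extracts proteins from the membrane, had log2 fold changes of 0.28 for shH4 and 0.22 for shH6. Its cofactor Nploc4 had 0.23 for shH4 and 0.28 for shH6, and the ubiquitin ligase Syvn1 had 0.25 for shH4 and 0.28 for shH6. The Syvn1 call was lost without shControl replicate 1 (0.212), shH4 replicate 1 (0.121) or shH4 replicate 3 (0.0655) in shH4 and without shControl replicate 1 (0.133) or shH6 replicate 3 (0.132) in shH6, and in both under equal upper quartiles (0.105 and 0.0534) and library weights (0.0621 and 0.27). With library weights its log2 fold change in shH6 was 0.10, and its libraries overlapped shControl in both hairpins. Another 7 listed ERAD genes were not analysed here.

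Most of the 13 listed ER chaperones and co-chaperones were higher. In shH4, 10 were higher and 2 lower, where 49.2% of all listed genes were higher. In shH6, 8 were higher and 3 lower, where 49.1% were higher. Both hairpins called 8 of the 13 higher and 2 lower, against 47.2% and 44.6% of all listed genes. The median change on the log2 scale was 0.19 in each hairpin, beside 0.10 and 0.09 over the table. The role median ran from 0.18 to 0.21 within the shH4 libraries and from 0.13 to 0.19 within the shH6 libraries, with shH6 replicate 3 lowest. Without that library, 10 of the 13 were higher in shH6, and after scaling to equal upper quartiles 7 were higher and 3 lower in each hairpin. Hspa5, or BiP, the ER HSP70 that also holds the sensors inactive, was at 14183, 14042 and 14000.3 normalized counts under shControl, 17225, 16836 and 16303 under shH4, and 16798, 17599.5 and 16082 under shH6. The KD groups overlapped and lay clear of shControl. For Hspa5 (ENSMUSG00000026864), limma gave log2 fold changes of 0.25 (SE 0.037, adjusted p = 1.74e-05) for shH4 and 0.26 (SE 0.037, adjusted p = 1.47e-05) for shH6.

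Hsp90b1, or GRP94, was at 15689.6, 17434 and 16519 normalized counts under shControl, 20440.5, 19171 and 19662 under shH4, and 18391, 18071 and 17999 under shH6. All shH4 libraries were above all shH6 libraries, and these above shControl, which was the most variable of the groups. For Hsp90b1 (ENSMUSG00000020048), limma gave log2 fold changes of 0.26 (SE 0.039, adjusted p = 3.00e-05) for shH4 and 0.13 (SE 0.039, adjusted p = 0.00455) for shH6. The shH6 call of Hsp90b1 was lost after scaling to equal upper quartiles (adjusted p = 0.0576). Hyou1, an ER HSP110 that exchanges the nucleotide of BiP, was at 3324, 3449 and 3399 normalized counts under shControl, 4039.7, 4188 and 4015 under shH4, and 3871, 3925 and 3983 under shH6. The 3 groups were apart, with shH4 highest. For Hyou1 (ENSMUSG00000032115), limma gave log2 fold changes of 0.27 (SE 0.034, adjusted p = 4.84e-06) for shH4 and 0.21 (SE 0.034, adjusted p = 4.42e-05) for shH6. Dnajc3, an ER J-domain protein that also inhibits PERK, had log2 fold changes of 0.22 for shH4 and 0.21 for shH6 (limma adjusted p = 0.000247 and 0.000342). Manf, a secreted factor of the ER that binds BiP, had 0.22 for shH4 and 0.19 for shH6 (limma adjusted p = 0.000112 and 0.000359).

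Calr, the lectin chaperone calreticulin, was at 14125, 14628 and 13942 normalized counts under shControl, 15654, 15488 and 15277 under shH4, and 15116, 15338 and 14300.4 under shH6. All shH4 libraries were above shControl, whereas shH6 replicate 3 lay inside its range. For Calr (ENSMUSG00000003814), limma gave log2 fold changes of 0.12 (SE 0.035, adjusted p = 0.00456) for shH4 and 0.07 (SE 0.035, adjusted p = 0.0728) for shH6. The shH6 value passed the threshold without shControl replicate 2 (adjusted p = 0.0414), without shH6 replicate 3 (0.0127) and after scaling to equal column totals (0.00517), and after scaling to equal upper quartiles neither hairpin did (0.119 and 0.663). Creld2, an ER-stress-induced disulfide isomerase, was at 479.7 ± 20.6 normalized counts under shControl, 529.6 ± 21.6 under shH4 and 579 ± 15.6 under shH6 (SD, n = 3 each). Its log2 fold changes were 0.14 for shH4 and 0.27 for shH6, and the shH4 call was lost without shControl replicate 1 (0.113), shControl replicate 2 (0.0761) or shH4 replicate 2 (0.122). Scaling to equal upper quartiles also lost the shH4 call of Creld2. Dnajc25, a J-domain protein, had the highest log2 fold change of the 73 genes in shH4. It was at 132, 130.4 and 136 normalized counts under shControl, 168, 188 and 208 under shH4, and 192, 164 and 161 under shH6, with the KD groups overlapping above shControl. For Dnajc25 (ENSMUSG00000070972), limma gave log2 fold changes of 0.49 (SE 0.10, adjusted p = 0.000521) for shH4 and 0.37 (SE 0.10, adjusted p = 0.0038) for shH6.

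Dnajb9, or ERdj4, the J-domain partner of BiP that represses IRE1, went against most of this role. It was at 163, 159 and 145 normalized counts under shControl, 129, 129.7 and 131 under shH4, and 125, 125 and 131 under shH6. All KD libraries lay close together and below shControl. For Dnajb9 (ENSMUSG00000014905), limma gave log2 fold changes of −0.26 (SE 0.097, adjusted p = 0.019) for shH4 and −0.29 (SE 0.097, adjusted p = 0.00948) for shH6. The shH4 call of Dnajb9 was lost without shControl replicate 1 (0.0767) or shControl replicate 2 (0.0513). The other 2 with lower values were Dnajc14 (−0.11 for shH4 and −0.12 for shH6) and Sdf2 (−0.11 for shH4 and −0.18 for shH6, where shH4 missed the threshold at an adjusted p of 0.0525), named here to complete the count after their values were seen. The Dnajc14 call did not hold without shControl replicate 1 (0.0904), shControl replicate 3 (0.105), shH4 replicate 1 (0.111) or shH4 replicate 2 (0.0756) in shH4 or without shControl replicate 1 (0.058), shControl replicate 3 (0.0693) or shH6 replicate 3 (0.0976) in shH6.

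**Figure D3:**
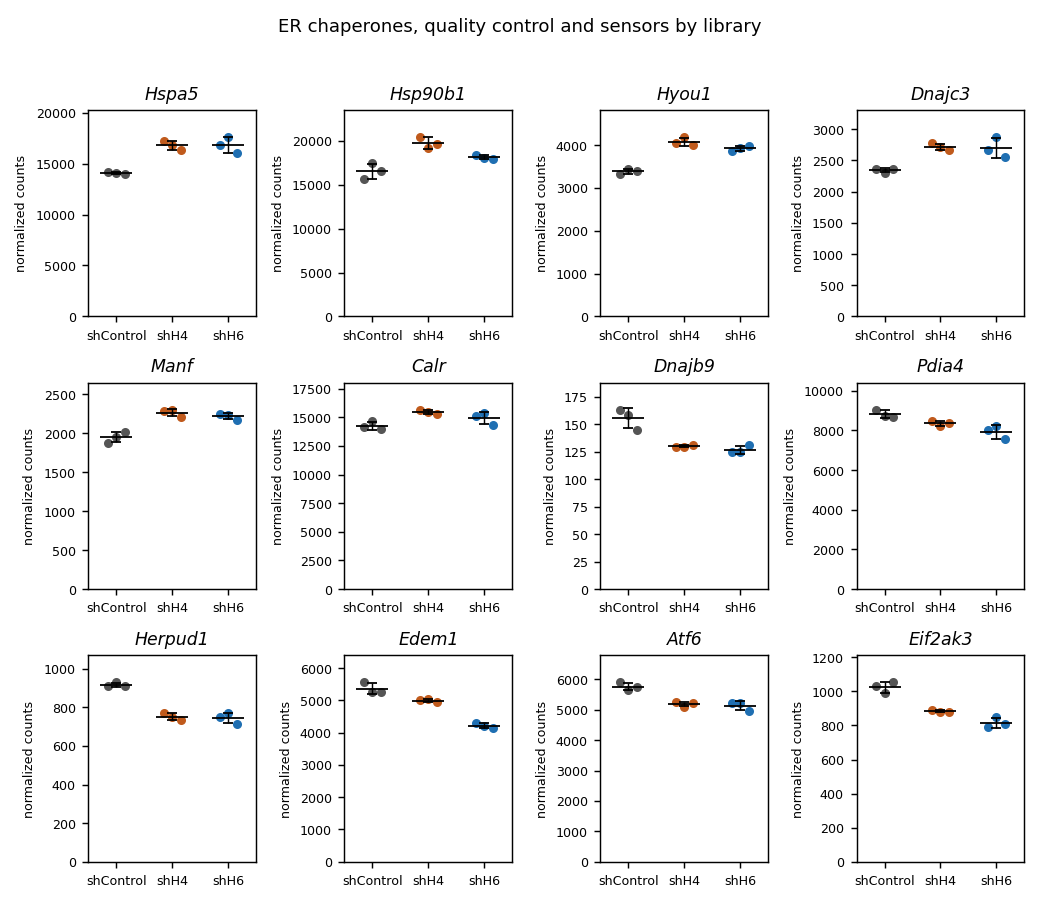
Normalized counts of 12 ER genes in each library. Points are single libraries of shControl, shH4 and shH6, and the bars are the mean and SD of 3 libraries. Hspa5, Hsp90b1, Hyou1, Dnajc3 and Manf lie higher in all 6 KD libraries, while Dnajb9, Pdia4, Herpud1, Edem1, Atf6 and Eif2ak3 lie lower in all 6.

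The ER stress response element, to which ATF6 and XBP1 bind together with NF-Y, was searched as CCAAT, any 9 bases and CCACG on either strand. It was present in a promoter of 5 of the 60 genes (8.33%), against 0.137% of the 27025 genes and 0.212% of those in the table. All 5 belong to ER chaperones. Hspa5, Hsp90b1, Dnajc3 and Creld2 were called higher by both hairpins and Calr by shH4 only, although Calr also passed in shH6 under equal column totals (adjusted p = 0.00517) and library weights (0.00261). Under equal upper quartiles, Calr was called in neither hairpin, Creld2 lost its shH4 call and Hsp90b1 its shH6 call. Of the 8 listed genes that carry the element, these 5 included, 6 were higher in both hairpins and none was lower in both, where 47.2% of all listed genes were higher in both. Hsp90b1 holds 2 copies. The stretches are shown because these 5 ER chaperones share the element, which is in capitals, and they read 5′ to 3′ on the strand of the gene.
Hspa5: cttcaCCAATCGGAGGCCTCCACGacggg
Hsp90b1 copy 1: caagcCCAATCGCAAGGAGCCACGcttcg
Hsp90b1 copy 2: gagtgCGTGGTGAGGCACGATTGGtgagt
Dnajc3: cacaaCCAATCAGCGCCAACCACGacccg
Creld2: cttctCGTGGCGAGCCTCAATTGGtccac
Calr: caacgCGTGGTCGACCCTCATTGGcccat
The Hspa5 stretch lies at chr2:34772020-34772048 on the plus strand, with the element 65 to 47 bases before the start. The Hsp90b1 copies lie on the minus strand at chr10:86705633-86705661 and chr10:86705528-86705556, 212 to 194 and 107 to 89 bases before the start. Dnajc3 has its element on the plus strand in chr14:118937822-118937850, 105 to 87 bases before the start. The Creld2 stretch is chr15:88819515-88819543 on the plus strand (126 to 108 bases before) and that of Calr chr8:84847070-84847098 on the minus strand (162 to 144 bases before). In Creld2, Calr and the second Hsp90b1 copy the element is on the opposite strand. The XBP1 element, TGACG followed by TGG, was found in Sec23a, Sec24d and Dnajc25 (5% of the 60 genes, against 0.714% of all genes and 1.09% of those in the table), of which Sec23a was lower and the others higher. Among the 41 listed genes that carry it, 25 were higher and 13 lower in both hairpins. No hit of a motif overlapped a hit of another.

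Among all listed genes, 46.5% were lower in shH4 and 46.9% in shH6. Of the 4 genes of disulfide formation, 3 were lower and 1 higher in each hairpin. Pdia4, an ER disulfide isomerase, was at 9039, 8717 and 8691 normalized counts under shControl, 8457, 8235 and 8366 under shH4, and 8029, 8222 and 7547 under shH6. All KD libraries were below shControl, by little in shH4. For Pdia4 (ENSMUSG00000025823), limma gave log2 fold changes of −0.08 (SE 0.036, adjusted p = 0.0482) for shH4 and −0.15 (SE 0.036, adjusted p = 0.00107) for shH6. The shH4 call stood at the threshold and was lost without any single shControl or shH4 library or shH6 replicate 1, with adjusted p-values from 0.0583 to 0.168. It was also lost after scaling to equal column totals. The oxidases reoxidise the isomerases, and Ero1l had log2 fold changes of −0.37 for shH4 and −0.28 for shH6. Ero1lb had −0.17 for shH4 and −0.23 for shH6. The Ero1lb call in shH4 was lost without shControl replicate 3 (0.0901) or shH4 replicate 3 (0.0937). Pdia3, which works with the lectin chaperones, was the only one of the 4 that was higher (0.14 for shH4 and 0.08 for shH6), and its shH6 call was lost without shControl replicate 1 (0.0663), shControl replicate 3 (0.0895), shH6 replicate 1 (0.11) or shH6 replicate 2 (0.0652). Pdia3 was also not called in shH6 under equal upper quartiles (adjusted p = 0.367). While 47.2% of all listed genes were higher in both hairpins, 3 of 4 ER folding genes outside the rule were so. The other, the disulfide isomerase P4hb, had −0.08 for shH4 and −0.13 for shH6, the former short of the threshold (adjusted p = 0.0513) but past it under equal upper quartiles (0.0028) and library weights (0.0207). Among the 3, Txndc5 lost its shH6 call without shControl replicate 2 (0.0517), shControl replicate 3 (0.133), shH6 replicate 1 (0.0753), shH6 replicate 2 (0.0551) or shH6 replicate 3 (0.0604), and both calls after scaling to equal upper quartiles (0.125 and 0.513). Txndc11 had log2 fold changes of 0.45 for shH4 and 0.52 for shH6 (limma adjusted p = 7.99e-05 and 1.92e-05) and Erp29 of 0.35 for shH4 and 0.44 for shH6 (limma adjusted p = 2.97e-06 and 2.33e-07).

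Among all listed genes, 49.2% were higher in shH4 and 49.1% in shH6. Of the 5 genes of the translocon, 3 were higher and 2 lower in each hairpin. Ssr1, a subunit of the translocon-associated protein complex, was at 4044, 4089 and 4036 normalized counts under shControl, 4903, 4682 and 4684 under shH4, and 4495, 4459 and 4128 under shH6. The KD groups were apart, with shH6 replicate 3 near shControl. For Ssr1 (ENSMUSG00000021427), limma gave log2 fold changes of 0.23 (SE 0.038, adjusted p = 5.98e-05) for shH4 and 0.10 (SE 0.038, adjusted p = 0.0167) for shH6. The shH6 call of Ssr1 was lost without shH6 replicate 1 (0.0873) or shH6 replicate 2 (0.0624). Its partner Ssr3 had log2 fold changes of 0.17 for shH4 and 0.12 for shH6, and Ssr2 had 0.14 for shH4 and 0.13 for shH6. Ssr4 of the same complex was lower, at −0.25 for shH4 and −0.15 for shH6, as was the translocon channel Sec61a2, at −0.14 for shH4 and −0.22 for shH6. The calls of Ssr2 were lost without shControl replicate 2 (0.0736) or shH4 replicate 2 (0.0651) in shH4 and without shControl replicate 2 (0.107), shControl replicate 3 (0.0671), shH6 replicate 1 (0.0651) or shH6 replicate 2 (0.134) in shH6, and that of Sec61a2 in shH4 without shControl replicate 1 (0.0789), shControl replicate 2 (0.0555), shControl replicate 3 (0.111), shH4 replicate 1 (0.259) or shH6 replicate 1 (0.0501). After scaling to equal upper quartiles, none of the 3 was called higher in shH6.

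The share of all listed genes called higher was 49.2% in shH4 and 49.1% in shH6. Of the 7 genes of the COPII coat and ER-Golgi traffic, 5 were higher and 2 lower in each hairpin. Sec13, a coat subunit that is also part of the nuclear pore, rose most. It was at 1820.3, 1854 and 1973 normalized counts under shControl, 2461, 2366 and 2168 under shH4, and 2322, 2429 and 2376 under shH6, with the KD groups interleaved above shControl. For Sec13 (ENSMUSG00000030298), limma gave log2 fold changes of 0.31 (SE 0.047, adjusted p = 3.17e-05) for shH4 and 0.34 (SE 0.047, adjusted p = 1.26e-05) for shH6. The others that were higher, Sec16a, Sec23b, Sec24d and Sec31a, ranged from 0.12 to 0.26. Sec22a had log2 fold changes of −0.19 for shH4 and −0.36 for shH6. Its shH4 libraries overlapped shControl, and the shH4 call was lost without shControl replicate 1 (0.127), shH4 replicate 2 (0.0636) or shH4 replicate 3 (0.104). The Sec16a call in shH6 was lost without shControl replicate 1 (0.0565). After scaling to equal upper quartiles, 3 of the 7 were higher in shH4 and 4 in shH6. Sec16a then missed the threshold in both hairpins (adjusted p = 0.0604 and 0.148) and Sec23b in shH4 (adjusted p = 0.0568). Sec23a and Sec23b are alternative forms of the same inner coat subunit and went opposite ways. Sec23a was at 1785, 1742 and 1779 normalized counts under shControl, 1639, 1615 and 1609 under shH4, and 1399, 1499.6 and 1311 under shH6. The 3 groups did not overlap, with shH6 lowest. For Sec23a (ENSMUSG00000020986), limma gave log2 fold changes of −0.13 (SE 0.047, adjusted p = 0.0179) for shH4 and −0.34 (SE 0.047, adjusted p = 1.08e-05) for shH6. Sec23b was at 1186, 1129 and 1169 normalized counts under shControl, 1307, 1283 and 1278 under shH4, and 1370.0, 1418 and 1342 under shH6. Here too the groups were apart, in the reverse order. For Sec23b (ENSMUSG00000027429), limma gave log2 fold changes of 0.15 (SE 0.043, adjusted p = 0.00389) for shH4 and 0.25 (SE 0.043, adjusted p = 9.25e-05) for shH6. Sec23b was chosen for this contrast after the values were seen.

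In the cytosol, 5 of 8 heat shock proteins were higher in both hairpins, against 47.2% of all listed genes. Hspb1 and Hspa2 of the 8 were lower in both, against 44.6% of all listed genes. With equal upper quartiles, 4 of the 8 were higher and 3 lower in shH4, and 5 and 3 in shH6. Hspa8, the constitutive HSP70, was at 23102, 23033 and 22909 normalized counts under shControl, 27458, 26255 and 25968 under shH4, and 25513, 26466 and 25110.0 under shH6. The KD groups overlapped above shControl. For Hspa8 (ENSMUSG00000015656), limma gave log2 fold changes of 0.21 (SE 0.035, adjusted p = 7.28e-05) for shH4 and 0.16 (SE 0.035, adjusted p = 0.000627) for shH6. Hsph1, an HSP110 and exchange factor of HSP70, was at 2537, 2786 and 2659.5 normalized counts under shControl, 3571, 3277 and 3514 under shH4, and 3215, 3118 and 3329 under shH6, with all KD libraries above shControl. For Hsph1 (ENSMUSG00000029657), limma gave log2 fold changes of 0.38 (SE 0.044, adjusted p = 1.91e-06) for shH4 and 0.28 (SE 0.044, adjusted p = 3.92e-05) for shH6. Hspa4, of the same family, had log2 fold changes of 0.14 for shH4 and 0.17 for shH6.

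The stress-inducible HSP70 genes Hspa1a and Hspa1b lie 9952 bases apart on chromosome 17 and are nearly identical, so the counting may have split their reads and their values are uncertain. Hspa1b was at 521, 537 and 508 normalized counts under shControl, 738, 669 and 662 under shH4, and 696, 847 and 798 under shH6. The KD groups overlapped above shControl. For Hspa1b (ENSMUSG00000090877), limma gave log2 fold changes of 0.40 (SE 0.07, adjusted p = 9.46e-05) for shH4 and 0.57 (SE 0.07, adjusted p = 2.68e-06) for shH6. Hspa1a was at 263, 242 and 299 normalized counts under shControl, 306, 352 and 294 under shH4, and 380.5, 357 and 368 under shH6, where 294 in shH4 replicate 3 lay inside the shControl range. For Hspa1a (ENSMUSG00000091971), limma gave log2 fold changes of 0.24 (SE 0.089, adjusted p = 0.0161) for shH4 and 0.46 (SE 0.089, adjusted p = 0.000205) for shH6. The shH4 call of Hspa1a was lost without shControl replicate 2 (0.0853) or shH4 replicate 2 (0.0956), and after scaling to equal upper quartiles. Hspb1, or HSP27, a small heat shock protein that holds unfolded proteins, was at 470.1, 416 and 472 normalized counts under shControl, 250.5, 236 and 314 under shH4, and 352, 358 and 328 under shH6. The 3 groups were apart, with shH4 lowest. For Hspb1 (ENSMUSG00000004951), limma gave log2 fold changes of −0.77 (SE 0.095, adjusted p = 3.39e-06) for shH4 and −0.39 (SE 0.095, adjusted p = 0.00142) for shH6. Hspa2 had log2 fold changes of −0.36 for shH4 and −0.37 for shH6. Hspb2 had −0.26 for shH4 and −0.64 for shH6, the former short of the threshold (adjusted p = 0.0588). Hspb2 overlaps Cryab on the opposite strand, and the use of strand in counting was not given in the sources used here.

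Of the 8 cytosolic and nuclear J-domain proteins, 7 were higher in both hairpins, against 47.2% of all listed genes. Among the 8, only Dnajb4 had lower values (−0.10 for shH4 and −0.20 for shH6, adjusted p = 0.0809 in shH4, and 0.0101 there under equal upper quartiles). Dnaja1, a co-chaperone of HSP70, was at 2099.6, 2156 and 2056 normalized counts under shControl, 2805, 2609 and 2672 under shH4, and 2644, 2576 and 2551 under shH6. The KD groups overlapped, and every KD library exceeded every shControl library. For Dnaja1 (ENSMUSG00000028410), limma gave log2 fold changes of 0.36 (SE 0.039, adjusted p = 9.29e-07) for shH4 and 0.30 (SE 0.039, adjusted p = 5.35e-06) for shH6. Dnajc27, a small GTPase with a J-domain, was at 348, 326 and 354 normalized counts under shControl, 423, 421 and 400.0 under shH4, and 464, 475 and 448 under shH6, with the 3 groups apart and shH6 highest. For Dnajc27 (ENSMUSG00000020657), limma gave log2 fold changes of 0.27 (SE 0.065, adjusted p = 0.00113) for shH4 and 0.43 (SE 0.065, adjusted p = 2.27e-05) for shH6. Dnajb1, the HSP40 that heat shock induces, had log2 fold changes of 0.19 for shH4 and 0.24 for shH6 (limma adjusted p = 0.00445 and 0.000887). After scaling to equal upper quartiles, 5 of the 8 were higher in shH4 and 7 in shH6. The shH4 call of Dnajc5 was lost without shControl replicate 3 (0.0794) or shH4 replicate 1 (0.0589), and that of Dnajc2 without shControl replicate 1 (0.0782), shControl replicate 3 (0.0663), shH4 replicate 1 (0.138) or shH4 replicate 2 (0.0621). Outside the rule, 7 of 9 genes of the heat shock factor and HSP90 machinery were higher in each hairpin. The shares over all listed genes were 49.2% in shH4 and 49.1% in shH6. Trap1, the mitochondrial HSP90, was lower in both, with log2 fold changes of −0.11 for shH4 and −0.16 for shH6. Cdc37, which brings kinases to HSP90, had −0.07 for shH4 and −0.12 for shH6, the former short of the threshold (adjusted p = 0.0669) but past it under equal upper quartiles (0.00277) and library weights (0.0479). The shH4 call of Stip1, a co-chaperone that links HSP70 and HSP90, was lost without shControl replicate 1 (0.0908), shControl replicate 3 (0.0606) or shH4 replicate 1 (0.0751) and under equal upper quartiles (0.629). Ahsa2 lost its call without shControl replicate 2 (0.0767) or shH4 replicate 1 (0.15) in shH4 and without shControl replicate 2 (0.0669) in shH6, and both under equal upper quartiles (0.219 and 0.142). Hsf1 was higher, at 897 ± 36.7 normalized counts under shControl, 1133 ± 42.2 under shH4 and 1097 ± 57.0 under shH6 (SD, n = 3 each). Log2 fold changes came to 0.34 for shH4 and 0.29 for shH6 (limma adjusted p = 3.19e-05 and 0.000124).

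Mitochondrial chaperones showed no common direction, with 3 of 6 higher and 2 lower in each hairpin. After scaling to equal upper quartiles, 1 was higher and 3 lower in shH4, and 2 and 3 in shH6. Hspd1 (HSP60) and its co-chaperonin Hspe1 (HSP10) are transcribed away from each other on chromosome 1 and overlap in the annotation. Hspd1 was at 13932, 13929.7 and 13648 normalized counts under shControl, 16064, 15646 and 15575 under shH4, and 15553, 15525 and 15101 under shH6. The 3 groups were apart, with shH4 highest. For Hspd1 (ENSMUSG00000025980), limma gave log2 fold changes of 0.19 (SE 0.032, adjusted p = 6.88e-05) for shH4 and 0.15 (SE 0.032, adjusted p = 0.000366) for shH6. Hspe1 was at 3043, 2965 and 2933 normalized counts under shControl, 3259, 3190.5 and 3077 under shH4, and 3137, 3243 and 3184 under shH6. Its KD libraries lay just above shControl. The log2 fold changes were 0.09 for shH4 and 0.10 for shH6. Its calls were lost without shControl replicate 2 (0.0554), shControl replicate 3 (0.0829), shH4 replicate 1 (0.0903) or shH4 replicate 2 (0.053) in shH4 and without shControl replicate 3 (0.0662) or shH6 replicate 2 (0.0581) in shH6, and after scaling to equal upper quartiles (0.406 and 0.221).

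The heat shock element, taken as 3 GAA units in alternating orientation with 2 bases between them, was found in Hspd1, Hspe1 and Hsph1, which is 5% of the 60 genes, against 0.662% of all genes and 0.638% of those in the table. All 3 genes were called higher by both hairpins, as were 47.2% of all listed genes and 17 of the 24 listed genes that carry the element (7 were lower in both). Hspd1 and Hspe1 share a single stretch between them, so these are not 3 separate elements. That stretch is shown as read from Hspd1.
Hspd1: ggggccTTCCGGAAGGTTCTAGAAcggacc
It lies at chr1:55088053-55088082, read on the minus strand, and the capitals mark 2 overlapping copies, 144 to 127 bases before the Hspd1 start.

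Hspa9, the mitochondrial HSP70 mortalin, was at 19851 ± 151 normalized counts under shControl, 18917 ± 444 under shH4 and 18736 ± 613 under shH6 (SD, n = 3 each). For Hspa9 (ENSMUSG00000024359), limma gave log2 fold changes of −0.07 (SE 0.034, adjusted p = 0.0608) for shH4 and −0.08 (SE 0.034, adjusted p = 0.0286) for shH6. The shH6 call of Hspa9 was lost without shControl replicate 1 (0.0623), shControl replicate 2 (0.0647), shControl replicate 3 (0.0534) or shH6 replicate 3 (0.112). Dnajc28 was at 85.4, 74.7 and 85.3 normalized counts under shControl, 60.1, 48.4 and 65.5 under shH4, and 62.0, 57.7 and 33.7 under shH6. All KD libraries were below shControl, but those of shH6 spread widely, with replicate 3 lowest. For Dnajc28 (ENSMUSG00000039763), limma gave log2 fold changes of −0.50 (SE 0.20, adjusted p = 0.0255) for shH4 and −0.71 (SE 0.20, adjusted p = 0.00341) for shH6. The shH4 call of Dnajc28 was lost without shControl replicate 1 (0.0635), shControl replicate 3 (0.0655) or shH4 replicate 2 (0.11). Dnajc15 had log2 fold changes of 0.15 for shH4 and 0.25 for shH6, and its shH4 call was lost without shControl replicate 2 (0.0533), shControl replicate 3 (0.0883) or shH4 replicate 3 (0.0776) and after scaling to equal upper quartiles (0.151). Dnajc4 had −0.34 for shH4 and −0.21 for shH6, the latter short of the threshold in shH6 (adjusted p = 0.0562). In the chaperonin TRiC, which folds actin and tubulin as a ring of 8 different subunits, the 4 subunits analysed had no common direction. Cct3 had log2 fold changes of 0.14 for shH4 and 0.09 for shH6 and Cct8 had 0.15 for shH4 and 0.06 for shH6. Cct2 had −0.10 for shH4 and −0.14 for shH6, and Cct4 had −0.13 for shH4 and −0.13 for shH6. After scaling to equal upper quartiles, 1 of the 4 was higher in shH4 and none in shH6. The Cct8 value in shH6 was short of the threshold (adjusted p = 0.104). The Cct3 call in shH6 was lost without shControl replicate 2 (0.0524), shH6 replicate 1 (0.052) or shH6 replicate 2 (0.106) and that of Cct2 in shH4 without shControl replicate 1 (0.0888) or shH4 replicate 3 (0.0505). Bag5, an exchange factor of HSP70, had log2 fold changes of 0.20 for shH4 and 0.10 for shH6, the latter short of the threshold (adjusted p = 0.0564). The 4 genes that share only the name were lower in both hairpins, from −0.47 for Sec14l2 to −0.12 for Sec14l1 in shH4. Among all listed genes, 44.6% were lower in both. Asnsd1 had −0.12 for shH4 and −0.24 for shH6, the former short of the threshold (adjusted p = 0.0522).

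The hairpins were compared directly for the genes whose change might depend on the hairpin. Of the 73 genes, 6 differed between shH6 and shH4 (8.22%), beside 8.26% of all listed genes. Ddit4 (0.41, limma adjusted p = 0.000441), Hspb1 (0.39, adjusted p = 0.0168) and Atf4 (0.15, adjusted p = 0.0208) were higher in shH6 on the log2 scale. Edem1 (−0.24, limma adjusted p = 0.000289), Sec23a (−0.21, adjusted p = 0.00888) and Ssr1 (−0.13, adjusted p = 0.0496) were lower in shH6. Ddit4, Hspb1, Atf4 and Ssr1 changed more in shH4, the hairpin with the lower Resf1, and Edem1 and Sec23a changed more in shH6. The comparisons with shControl share the shControl libraries, so their values stand side by side only. The Hspb1 call was lost without shH4 replicate 1 (0.0779), shH4 replicate 2 (0.0794), shH6 replicate 1 (0.0589) or shH6 replicate 2 (0.058), and the Atf4 call without shH4 replicate 3 (0.107) or shH6 replicate 2 (0.102). The Ssr1 call was lost without any of the 9 libraries, with adjusted p-values from 0.0563 to 0.19. Among genes that did not pass, Hspb2 differed most (−0.37), with a SE of 0.13 and an adjusted p-value of 0.0862.

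**Figure D4:**
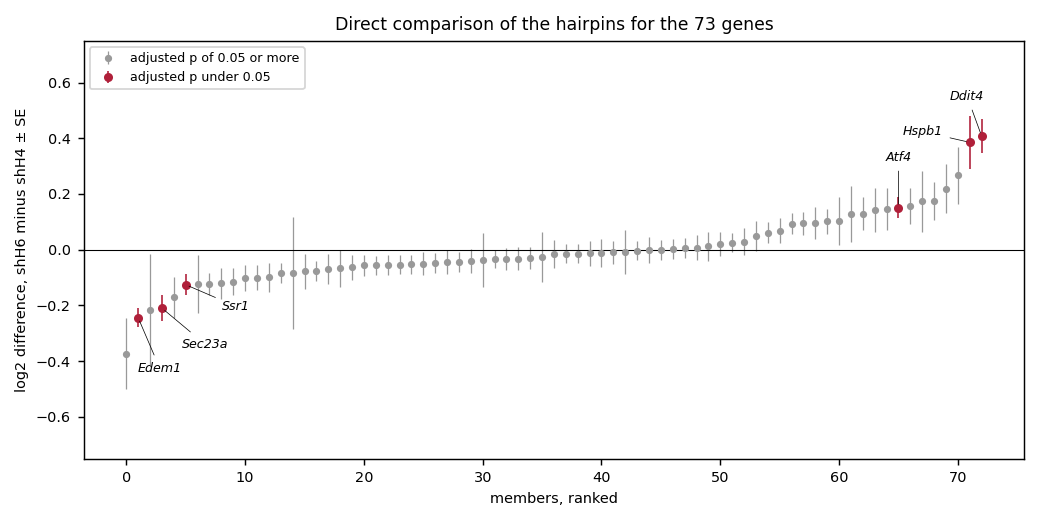
Log2 difference between shH6 and shH4 for the 73 genes, ranked, with the SE. Red points had an adjusted p-value under 0.05 and are named. The named genes run from −0.24 for Edem1 to 0.41 for Ddit4. Unnamed points farther out than the named Atf4 and Ssr1, such as those of Hspb2 and Chac1, did not pass the threshold.

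Levels between genes were compared per kilobase of exon. Hspa8 (5834 normalized counts per kilobase over all libraries), Hspd1 (5676) and Calr (5165) were the highest of the 73, above 96.5%, 96.4% and 96.1% of the listed genes. The median of the 73 genes was 390.4 per kilobase, against 213.0 for the table, 525.5 for the ER chaperones, 171 for the stress transcription factors and effectors and 2517 for the TRiC subunits. In sequence composition, the longest transcripts of the 73 genes had a median GC content of 47.3%, against 49.9% over the table. Because the study concerns G-quadruplexes, runs of 4 or more GGG tracts spaced by 1 to 7 bases were counted in these transcripts. The definition differs from that of the paper. Its predicted quadruplexes, on the DNA of RESF1-associated sites, were strongly enriched for ones with only 2 guanine tetrads. The GGG pattern does not cover that class. They were present in 17 of the 73 genes (23.3%) and in 21.9% of listed genes, and the same pattern in C, which lies on the opposite strand, in 9 (12.3%) and 26.4%. Both together occurred in 2 of the 73 genes and in 494 of the 5258 listed genes with a transcript.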

How the data were processed

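RNA of 9 cultures (3 each of shControl, shH4 and shH6) was sequenced from TruSeq Stranded Total RNA libraries. Per the submitters' processing notes, the authors used STAR 2.7.8a, Partek and DESeq2 with the build mm39. The deposited values are a signal: read counts that the authors divided by a median-ratio factor per library, for 5301 selected genes whose rule of selection, like the use of strand in counting, was not given in the sources used here. Of the values below 150, 72.3% to 77.3% per library were whole multiples of 1 estimated read (tolerance 0.02), too few for a count test. Estimated reads in the listed genes were 10.5 to 19.9 M per library. All value columns matched a sample.

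A pseudocount of 1 was added before taking log2, and limma 3.58.1 (R 4.3.3) was fitted to all 3 groups, with no filter, no block and Benjamini-Hochberg adjustment over the 5301 genes at 0.05. Fold changes on this scale understate those of low genes. The 17 alternatives were pseudocounts of 10 and 0.5, a minimum value of 10, equal column totals, equal upper quartiles, only the compared groups, the replicate block, library weights and leaving out each of the 9 libraries. The scripts were tested on simulated data. GENCODE M21, an annotation of GRCm38, matched 5258 genes (99.2%). The build differs from mm39, so coordinates are given only for RefSeq promoters of GRCm38.p6. Of the 73 genes, 33 overlap another annotated gene, 23 of them on the opposite strand.

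The genes and lists were chosen with earlier results of these data known. Named genes were the 28 analysed of 38 fixed symbols, the 6 highest and 6 lowest by the smaller of both changes among genes called alike whose KD libraries all lay on the same side of shControl, those that differed between hairpins, the 3 of highest level per kilobase, and the 3 highest and 3 lowest pathway genes outside the rule. Other genes of small roles were named after their values were seen, to complete a count or to give a value that missed the threshold.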

Additional observations from a re-analysis of the deposited data

Results flagged for a closer look

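The direct test between shH6 and shH4 picked out 6 of the 73 genes (8.22%, beside 8.26% of all listed genes), which therefore had unequal changes under the hairpins. On the log2 scale, shH6 minus shH4 was −0.24 for Edem1 (limma adjusted p = 0.000289), −0.21 for Sec23a (adjusted p = 0.00888) and −0.13 for Ssr1 (adjusted p = 0.0496). It was 0.15 for Atf4 (limma adjusted p = 0.0208), 0.39 for Hspb1 (adjusted p = 0.0168) and 0.41 for Ddit4 (adjusted p = 0.000441). Edem1, Sec23a and Ddit4 kept their call under all 17 alternatives, and Hspb1, Atf4 and Ssr1 did not. With 1 transduced line per hairpin, the hairpin and the line cannot be told apart.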

How the results depend on the processing

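No value reversed among 1462 recomputed values of 86 results, of which 65 single-gene values lost the threshold and 9 gained it, and 3 counts or medians moved beyond their limit. For the comparisons with shControl, the lack of reversals was largely fixed beforehand by the selection of the listed genes. Under equal upper quartiles, which shifted the median of all genes by −0.061 in shH4 and −0.052 in shH6 on the log2 scale, the median log2 fold change of the 73 genes was 0.0303 for shH4 and 0.0087 for shH6. The genes called the same way by both hairpins then numbered 55, against 63, and leaving out single libraries gave 51 to 69. Genes that differed between the hairpins numbered 3 to 6 without single libraries, with 3 without shH6 replicate 2, and 9 with library weights, against 6. With the replicate block, 63 genes were called the same way by both hairpins and 5 differed between them. Same-numbered libraries did not deviate together (Pearson r across genes from −0.155 to 0.108). The values thus showed no pairing by number, but cannot tell whether same-numbered dishes were handled together. Of the 68 genes called in shH4, 52 kept the call without any single library, as did 59 of the 68 in shH6. The cause of these losses was not tested. The lowest value of the 73 genes stood for 24 estimated reads, and each group had 3 dishes.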
